A study of Mus musculus with 15 samples.

Results

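The CXC chemokines described here are 10 secreted or membrane-bound ligands, picked by gene symbol from the 21110 genes with an expression value in ear RNA of 15 C57BL/6 mice. They were grouped by their best known role as 4 neutrophil chemokines (*Cxcl1*, *Cxcl2*, *Cxcl3* and *Cxcl5*), 2 interferon chemokines (*Cxcl9* and *Cxcl10*) and 4 homeostatic chemokines (*Cxcl12*, *Cxcl13*, *Cxcl14* and *Cxcl16*). The mice were wild type (WT) or carried a deletion of *Socs3* driven by keratin 5, a keratin of basal keratinocytes (*Socs3* cKO). There were 4 WT and 4 *Socs3* cKO mice aged 2 weeks, and 3 WT and 4 *Socs3* cKO mice aged 10 weeks, with 1 library each, no treatment and no sex given. The labels call the source keratinocytes, while the RNA came from whole ear pieces, and markers of fibroblasts, endothelium, macrophages and muscle were all present. Fewer cells of a type and less RNA per cell cannot be told apart in such bulk RNA.

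CXC chemokines steer leukocytes along a gradient by binding receptors with 7 membrane spans, and most are made by epithelium, stroma, endothelium and macrophages. The neutrophil chemokines act on Cxcr2, and their genes are classical targets of NF-kB downstream of Il1b, Tnf and Il17a. Cxcl9 and Cxcl10 call Cxcr3-bearing T cells and are induced by interferons. The homeostatic members are made without inflammation: Cxcl12 holds Cxcr4-bearing cells in their niche, Cxcl13 draws B cells through Cxcr5, Cxcl14 is abundant in resting skin, and Cxcl16 is a membrane-bound ligand of Cxcr6. Socs3 is a feedback inhibitor of cytokine signalling through Stat3.

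Levels are given as FPKM, the reads of a gene scaled to its transcript length and to the mapped reads of the library, which permits comparison of levels between genes. The libraries held about 11100000 to 16400000 reads, estimated from the smallest steps of the values, so that 1 read of *Cxcl1* was worth 0.0638 to 0.0945 FPKM. *Cxcl2*, *Cxcl3* and *Cxcl13* thus rested on few reads outside the *Socs3* cKO mice at 10 weeks, and *Cxcl1* did so in the WT, down to 0.164 FPKM where 1 read was worth 0.0821. *Cxcl13* also did so in *Socs3* cKO replicate 3 at 10 weeks, at 0.189 FPKM where 1 read was worth 0.0563. The WT libraries at 10 weeks listed 1414 to 3176 genes at 0, and all other libraries 4044 to 4423. Values just above 0 in these WT libraries are thus hard to compare with the other groups. Differences are on the log2(FPKM + 0.1) scale. A gene was tested with limma when at least 3 mice of the fit reached an FPKM of 1, and called up- or down-regulated at an adjusted p below 0.01 with a |log2(FC)| of at least 1. *Socs3* cKO replicate 1 at 2 weeks stood apart, with a median correlation of 0.948 to its group against 0.973 to 0.976 for the other mice of that group. The median log2 difference of all tested genes between *Socs3* cKO and WT was -0.21 at 2 weeks and 0.31 at 10 weeks, and member values should be read relative to it. Each group has its own range of numbers beginning with S in the sample titles, and the labels do not say what these stand for. An effect of any batch they mark and one of group cannot be told apart.

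The targeted gene did not check the labels. *Socs3* stood at 9.71, 10.2, 10.3 and 10.3 FPKM in the WT at 2 weeks and at 1.25, 9.32, 12.6 and 3.51 in *Socs3* cKO (log2 difference -1.06, SE 0.63, adjusted p = 0.180). At 10 weeks it stood at 2.76, 4.81 and 2.02 FPKM in the WT and at 36.5, 29.8, 47.7 and 32.4 in *Socs3* cKO, a log2 difference of 3.54 (SE 0.29, adjusted p = 7.2e-05) that goes against the label. A whole-ear value mixes deleted and undeleted cells, and every direction between genotypes below rests on the libraries as labelled *Socs3* cKO or WT.

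In mm9, the build of the files, 7 of the 10 genes lie on chromosome 5. *Cxcl5* (91188325 to 91190651), *Cxcl3* (91215129 to 91217112), *Cxcl1* (91320267 to 91322141) and *Cxcl2* (91332897 to 91334935) share a stretch of 147 kb on the plus strand. *Cxcl9* (92750357 to 92757105) and *Cxcl10* (92775664 to 92777915) lie within 27.6 kb of each other on the minus strand, and *Cxcl13* lies at 96385945 to 96390086. *Cxcl12* is on chromosome 6 (117118553 to 117131385), *Cxcl14* on chromosome 13 (56390008 to 56397912) and *Cxcl16* on chromosome 11 (70267485 to 70273486). *Cxcl1*, *Cxcl2* and *Cxcl3* are paralogs, and how reads matching several copies were counted is not given in the sources used here.

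RefSeq promoters (GRCm38.p6, 250 bases before the annotated start) were matched for 8 members, and *Cxcl5* and *Cxcl16* had no entry. The NF-kB motif (GGGA, any base, TT, any base, CC), searched on both strands, occurred in 4 of these 8 windows and in 0.980% of 32851 mouse promoter windows of the same length. The 4 windows are shown because 3 of their genes, *Cxcl1*, *Cxcl2* and *Cxcl10*, had the highest log2 differences among the members at 10 weeks, and *Cxcl3* is the paralog that stayed below the filter. They are *Cxcl1* at chr5:90890995-90891244 on the plus strand, *Cxcl2* at chr5:90903649-90903898 on the plus strand, *Cxcl3* at chr5:90785851-90786100 on the plus strand and *Cxcl10* at chr5:92348890-92349139 on the minus strand, each written 5′ to 3′ along its gene with the NF-kB match in capitals:
Cxcl1: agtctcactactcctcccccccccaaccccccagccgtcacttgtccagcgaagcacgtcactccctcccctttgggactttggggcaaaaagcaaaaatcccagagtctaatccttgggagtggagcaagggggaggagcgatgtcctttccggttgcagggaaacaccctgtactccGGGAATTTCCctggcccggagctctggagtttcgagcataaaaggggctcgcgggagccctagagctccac
Cxcl2: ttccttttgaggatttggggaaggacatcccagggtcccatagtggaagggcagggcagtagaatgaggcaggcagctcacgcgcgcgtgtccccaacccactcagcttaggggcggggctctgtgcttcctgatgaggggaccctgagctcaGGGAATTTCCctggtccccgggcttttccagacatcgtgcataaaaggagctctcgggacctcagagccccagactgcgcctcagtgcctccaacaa
Cxcl3: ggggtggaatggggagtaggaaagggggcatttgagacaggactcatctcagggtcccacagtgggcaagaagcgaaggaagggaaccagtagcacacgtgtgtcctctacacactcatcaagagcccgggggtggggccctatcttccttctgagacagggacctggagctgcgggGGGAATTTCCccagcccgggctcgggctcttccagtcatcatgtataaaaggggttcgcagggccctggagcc
Cxcl10: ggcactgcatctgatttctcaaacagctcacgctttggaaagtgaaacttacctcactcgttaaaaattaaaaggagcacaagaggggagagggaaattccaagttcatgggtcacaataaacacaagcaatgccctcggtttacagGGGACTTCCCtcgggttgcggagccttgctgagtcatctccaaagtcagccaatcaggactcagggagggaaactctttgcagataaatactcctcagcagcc

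*Cxcl1*, *Cxcl2* and *Cxcl3* held the same 10 letters, GGGAATTTCC, starting 71, 97 and 73 bases before the start, and *Cxcl10* held GGGACTTCCC starting 103 bases before it. The interferon-stimulated response element (GAAA, any 2 bases, GAAA) occurred in *Cxcl10* (213 bases before the start) and *Cxcl14* (172 bases before it), against 2.98% of all windows. The STAT letters TTCNNNGAA occurred in *Cxcl14* alone among the 8 (7.02% of all windows) and the AP-1 letters TGANTCA in *Cxcl10* alone (6.75% of all windows), and no match overlapped another. A match describes letters and is not evidence of binding.

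Transcripts of homeostatic chemokines made up most of the total in 3 of the 4 groups, whereas older *Socs3* cKO ears held as many of the neutrophil class. In young WT mice the FPKM of the 10 genes summed to 307 to 327, of which 98.0 to 99.0% was homeostatic and 0.385 to 0.576% neutrophil. Young *Socs3* cKO mice summed to 62.5 to 129.5 (85.1 to 98.0% homeostatic and 1.08 to 7.44% neutrophil). The older WT mice summed to 76.3 to 94.2 (95.0 to 96.4% homeostatic and 1.64 to 1.96% neutrophil). The older *Socs3* cKO mice summed to 271 to 468, of which 31.2 to 50.4% was homeostatic, 42.3 to 55.3% neutrophil, most of it *Cxcl1*, and 5.80 to 13.5% interferon chemokine. The neutrophil share in these 4 mice lay far above that of every other mouse.

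**Figure D1:**
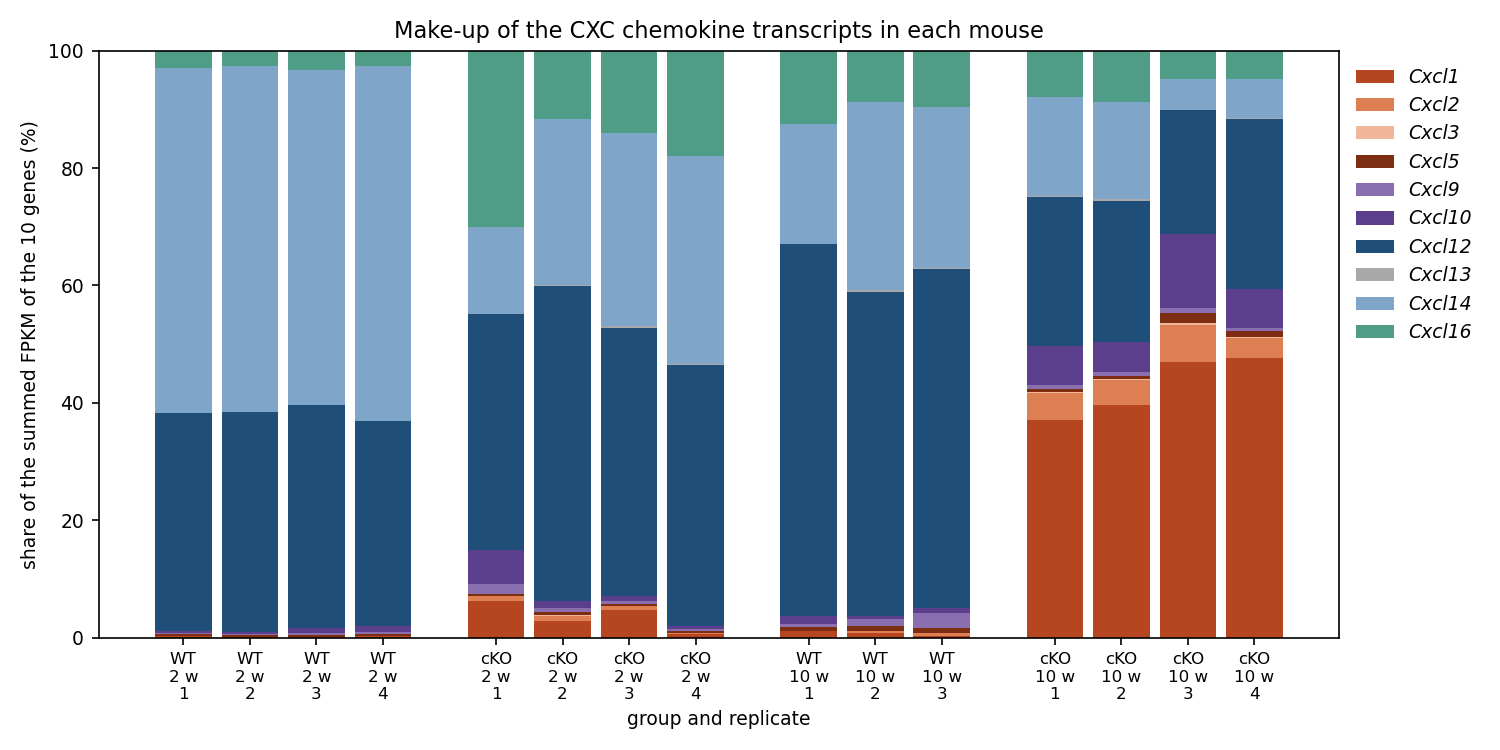
Share of each of the 10 genes in the summed FPKM of the 10 (y axis, percent), with 1 stacked bar per mouse in the 4 groups. *Cxcl12*, *Cxcl14* and *Cxcl16* fill nearly the whole bar in the other groups, whereas *Cxcl1* takes 37.1 to 47.6% in *Socs3* cKO at 10 weeks.

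The order of the members by median level shifted accordingly. In the WT at 2 weeks *Cxcl14* stood first, then *Cxcl12* and *Cxcl16*, and the ranges of these 3 overlapped neither each other nor that of the next gene. *Cxcl10*, *Cxcl5*, *Cxcl9* and *Cxcl1* followed with overlapping neighbours, and *Cxcl2*, *Cxcl3* and *Cxcl13* came last. In the WT at 10 weeks the order began with *Cxcl12*, *Cxcl14* and *Cxcl16*, again with no overlap between neighbours. In *Socs3* cKO at 10 weeks *Cxcl1* came first, and its range overlapped that of *Cxcl12*, the next gene. *Cxcl14*, *Cxcl10*, *Cxcl16* and *Cxcl2* followed, each overlapping its neighbour, and *Cxcl5*, *Cxcl9*, *Cxcl3* and *Cxcl13* were lowest.

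**Figure D2:**
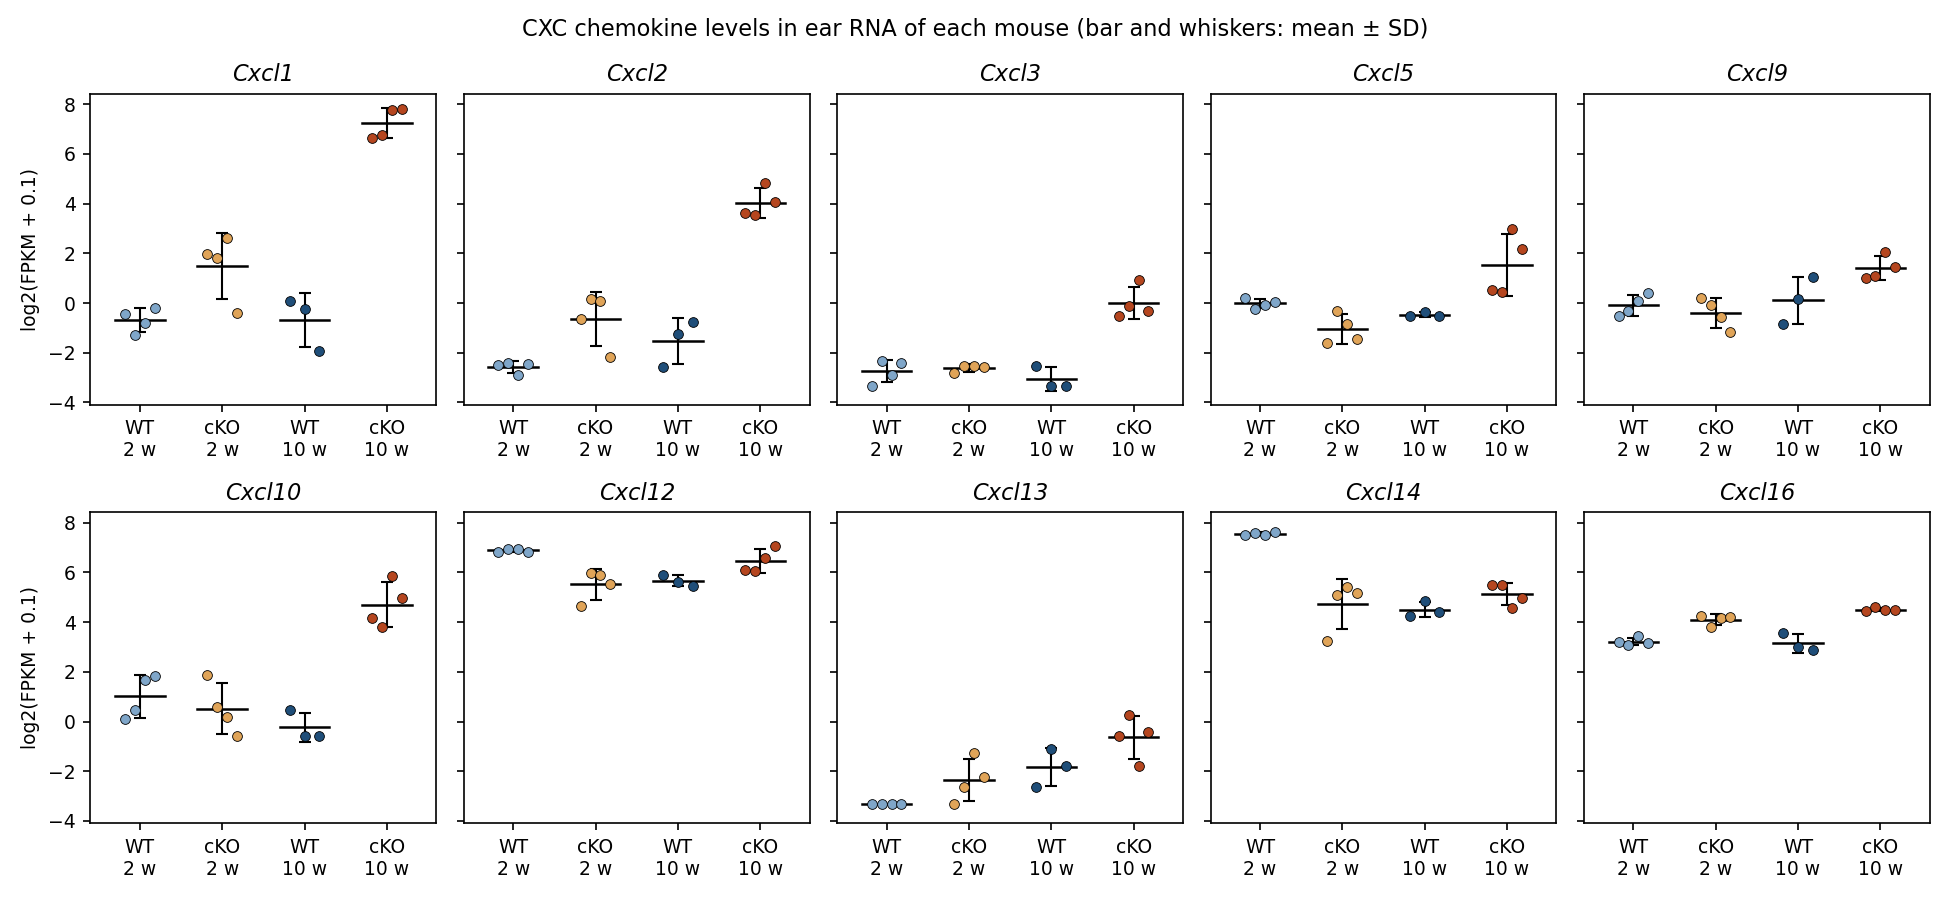
Levels of the 10 genes as log2(FPKM + 0.1) (y axis) in each mouse (points) of the 4 groups (x axis), with the group mean and SD as a bar and whiskers. *Cxcl1*, *Cxcl2*, *Cxcl3* and *Cxcl10* stand above every other group in *Socs3* cKO at 10 weeks, while *Cxcl12* and *Cxcl14* are highest in the WT at 2 weeks, apart from 1 *Socs3* cKO mouse at 10 weeks for *Cxcl12*.

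The first comparison asked how the loss of *Socs3* in keratinocytes altered the chemokines at 2 weeks. Of the 10 members 5 passed the filter, *Cxcl1* only through the *Socs3* cKO mice. Limma called 2 down-regulated and 0 up-regulated, against 14.4% of all tested genes called (7.24% higher and 7.19% lower). At an unadjusted p under 0.05 it gave 2 higher, *Cxcl1* among them, and 2 lower. All *Socs3* cKO mice lay above all WT mice for *Cxcl2* and *Cxcl16* and below for *Cxcl5*, *Cxcl12* and *Cxcl14*, where 22.9% of all tested genes lay wholly above and 33.2% wholly below. *Cxcl2* and *Cxcl5* were below the filter, so shares of tested genes do not cover them. Both down-regulated genes, *Cxcl12* and *Cxcl14*, were homeostatic.

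*Cxcl14*, the most abundant member in young WT skin, stood at 181, 192, 184 and 197 FPKM in the WT and at 9.34, 33.8, 42.8 and 36.3 in *Socs3* cKO at 2 weeks. Every *Socs3* cKO mouse was far below every WT mouse, and replicate 1 was lowest. The log2 difference was -2.83 (SE 0.43, adjusted p = 0.00213), and without that replicate it was -2.33 (adjusted p = 4.1e-06). *Cxcl12*, the ligand of Cxcr4 and Cxcr7, stood at 114, 122, 123 and 114 FPKM in the WT and at 25.2, 63.8, 59.2 and 45.7 in *Socs3* cKO. The groups did not overlap, and the log2 difference was -1.37 (SE 0.27, adjusted p = 0.00652). Without replicate 1 of *Socs3* cKO it was -1.08 (adjusted p = 0.000158), whereas leaving out any WT mouse, or *Socs3* cKO replicate 3 or 4, gave adjusted p-values of 0.0122 to 0.0233 and ended the call.

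Markers of several cell types moved with these falls. All 7 hair shaft keratins listed were down-regulated at 2 weeks, with a summed FPKM of 580.1 to 992 in the WT and 0.964 to 11.8 in *Socs3* cKO. Of the 5 fibroblast markers, *Col1a1* (log2 difference -3.06) and *Col1a2* (-1.72) were down-regulated and *Dcn* (1.24) up-regulated, and their summed FPKM was 8228 to 9862 in the WT and 3549 to 5171 in *Socs3* cKO. Of the 6 endothelial markers limma called 0 (2 were lower at an unadjusted p under 0.05), and their sum was 66.8 to 74.7 FPKM in the WT and 46.5 to 60.7 in *Socs3* cKO. Of the 5 skeletal muscle markers 3 were up-regulated, and their sum was 444 to 670 FPKM in the WT and 1054 to 1595 in *Socs3* cKO. The part of these cell types in the fall of *Cxcl12* and *Cxcl14* was not tested.

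*Cxcl16* stood at 9.13, 8.46, 10.7 and 8.75 FPKM in the WT and at 18.7, 13.8, 18.1 and 18.5 in *Socs3* cKO at 2 weeks. All 4 *Socs3* cKO mice were higher than all WT mice, but the log2 difference of 0.89 (SE 0.15, adjusted p = 0.00362) stayed below the fold threshold. With median-of-ratios scaling it was 1.09 and with quantile normalization 1.15, both past the threshold. *Cxcl13*, the B cell chemokine, was listed at 0 in all 4 WT mice and stood at 0, 0.0631, 0.311 and 0.114 FPKM in *Socs3* cKO, where 1 read was worth 0.0518 to 0.0627 FPKM (exact permutation test p = 0.143).

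Among the neutrophil chemokines, *Cxcl1* stood at 0.643, 0.312, 0.469 and 0.762 FPKM in the WT and at 3.84, 3.38, 6.03 and 0.652 in *Socs3* cKO at 2 weeks. In 3 of the 4 *Socs3* cKO mice it was above every WT mouse, while replicate 4 lay within the WT range. The log2 difference of 2.18 (SE 0.61) was not called (adjusted p = 0.0206). Without replicate 4 it was 2.82 (adjusted p = 0.00165), and it fell to 0.91 (adjusted p = 0.25) once each library's trend with gene length and GC content was removed. The trend with GC content ran opposite ways in the groups, with a Spearman correlation of deviation with GC content of 0.40 to 0.46 in the WT and -0.63 to -0.18 in *Socs3* cKO at 2 weeks. With length the correlation was 0.23 to 0.35 in the WT and -0.26 to 0.46 in *Socs3* cKO.

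*Cxcl2* stood at 0.0784, 0.0888, 0.0334 and 0.0814 FPKM in the WT and at 0.537, 1.03, 0.948 and 0.124 in *Socs3* cKO at 2 weeks. All *Socs3* cKO mice were higher, with replicate 4 again lowest, and the exact permutation test gave p = 0.0286, the smallest possible for 4 against 4 mice. *Cxcl5*, an epithelial neutrophil chemokine, went the other way: it stood at 1.05, 0.757, 0.852 and 0.940 FPKM in the WT and at 0.231, 0.708, 0.456 and 0.262 in *Socs3* cKO (log2 difference -1.04, exact permutation test p = 0.0286). *Cxcl3* stayed at 0 to 0.0965 FPKM in both genotypes.

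The interferon chemokines overlapped between the genotypes at 2 weeks. *Cxcl10* stood at 0.963, 1.27, 3.07 and 3.50 FPKM in the WT and at 3.59, 1.41, 1.04 and 0.570 in *Socs3* cKO, a log2 difference of -0.49 (SE 0.58, adjusted p = 0.492). *Cxcl9* stood at 0.594, 0.694, 0.965 and 1.23 FPKM in the WT and at 1.04, 0.843, 0.573 and 0.343 in *Socs3* cKO (log2 difference -0.32, exact permutation test p = 0.429). Both differences were smaller than the spread between mice. With the length and GC trends removed *Cxcl10* was at -1.57 (SE 0.51, adjusted p = 0.0378), and with quantile normalization it was at 0.00326 and *Cxcl9* at 0.20.

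The second comparison asked the same question at 10 weeks, and here all 3 classes held an up-regulated gene. Of the 10 members 8 passed the filter. *Cxcl1*, *Cxcl2* and *Cxcl5* passed only through the *Socs3* cKO mice, and *Cxcl9* and *Cxcl10* also needed these mice to pass. The members called up-regulated were 4 (*Cxcl1*, *Cxcl2*, *Cxcl10* and *Cxcl16*) and 0 were down-regulated, against 14.9% of all tested genes called (12.5% higher and 2.43% lower). Of these 4 only *Cxcl16* reached 1 FPKM in every WT mouse, so the count is not independent of the filter. At an unadjusted p under 0.05 limma gave 0 as lower. All *Socs3* cKO mice lay above all WT mice for 7 of the 10 members (6 of the 8 tested) and below for 0, where 31.2% of all tested genes lay wholly above and 11.1% wholly below. With median-of-ratios scaling, calls over all genes were 62.4% up-regulated in place of 83.7%, and the 4 members stayed called, at 7.71, 5.33, 4.69 and 1.10.

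*Cxcl1* stood at 0.970, 0.754 and 0.164 FPKM in the WT and at 101, 109, 217 and 223 in *Socs3* cKO at 10 weeks. Every *Socs3* cKO mouse was far above every WT mouse. The log2 difference was 7.93 (SE 0.48, adjusted p = 1.2e-05), the tenth highest of all 13105 genes tested. It was 6.59 with a pseudocount of 1. *Cxcl2* stood at 0.0690, 0.322 and 0.489 FPKM in the WT and at 12.3, 11.6, 28.6 and 16.6 in *Socs3* cKO, again with no overlap, and its log2 difference was 5.55 (SE 0.45, adjusted p = 7.2e-05). With pseudocounts of 1 and 0.01 the latter was 3.75 and 6.10.

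*Cxcl1* exceeded *Cxcl2* 7.57 to 13.4 times in these *Socs3* cKO mice. *Cxcl3*, their neighbour with the same NF-kB letters, was listed at 0.0750, 0 and 0 FPKM in the WT and at 0.602, 0.830, 1.79 and 0.696 in *Socs3* cKO. It rose in the same mice but remained far lower in level than *Cxcl1* and *Cxcl2*. It failed the filter, with an exact permutation test p of 0.0571, the smallest that 3 against 4 mice can give. With no filter limma gave a log2 difference of 3.05 (adjusted p = 0.00207), a size that ranged from 0.91 to 5.46 with pseudocounts of 1 and 0.01.

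*Cxcl5* stood at 0.589, 0.687 and 0.596 FPKM in the WT and at 1.34, 1.27, 7.90 and 4.38 in *Socs3* cKO at 10 weeks. All *Socs3* cKO mice were higher but spread widely, and the log2 difference of 2.00 (SE 0.58) was not called (adjusted p = 0.0228). With all 4 groups in one fit it was called (adjusted p = 0.00859). *Cxcl5* thus lay below the WT at 2 weeks and above it at 10 weeks.

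*Cxcl10* stood at 1.27, 0.577 and 0.572 FPKM in the WT and at 17.9, 14.0, 58.4 and 31.2 in *Socs3* cKO at 10 weeks. The groups did not overlap, and the log2 difference was 4.93 (SE 0.47, adjusted p = 0.000174). *Cxcl9*, its neighbour on the chromosome, stood at 0.450, 1.01 and 1.97 FPKM in the WT and at 1.93, 2.03, 4.04 and 2.65 in *Socs3* cKO. Its groups overlapped, and the log2 difference of 1.29 (SE 0.44) was not called (adjusted p = 0.0439). *Cxcl10* exceeded *Cxcl9* 6.90 to 14.5 times in *Socs3* cKO at 10 weeks, against 0.291 to 2.82 times in the WT of that age.

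Replicate 3 of *Socs3* cKO at 10 weeks had the highest *Cxcl10*, *Cxcl9*, *Cxcl5*, *Cxcl2* and *Cxcl3* of its group, so its high values were not confined to the interferon chemokines. It was also the only mouse of its group with high *Isg15*, *Mx1* and *Oasl2*, all interferon-stimulated. *Isg15*, a ubiquitin-like protein induced by type I interferon, stood at 4.72, 3.95, 51.2 and 6.22 FPKM in *Socs3* cKO and at 3.63, 6.03 and 4.28 in the WT. *Mx1* stood at 0.511, 0.672, 8.86 and 0.632 FPKM, and *Oasl2* at 0.765, 0.762, 11.9 and 0.998, in the same 4 mice. Without replicate 3 the log2 difference of *Cxcl10* was 4.54 (adjusted p = 0.000123), in mice whose *Isg15* stood at 3.95 to 6.22 FPKM.

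Of the 15 interferon-response genes tested at 10 weeks 2 were up-regulated, *Irf1* and *Ifit2*, where 12.5% of all tested genes were, and without replicate 3 only *Irf1* was called. *Irf1*, a transcription factor that answers both to interferon and to NF-kB, stood at 6.88, 8.39 and 8.39 FPKM in the WT and at 65.3, 61.9, 95.6 and 70.2 in *Socs3* cKO (log2 difference 3.18, SE 0.19, adjusted p = 1.2e-05). *Ifng* was listed at 0 in all *Socs3* cKO mice of both ages. It was also at 0 in 2 of 4 WT mice at 2 weeks and 1 of 3 at 10 weeks, and at most 0.143 FPKM in the others. At 2 weeks 2 of 17 interferon-response genes were up-regulated and 1 down-regulated.

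**Figure D3:**
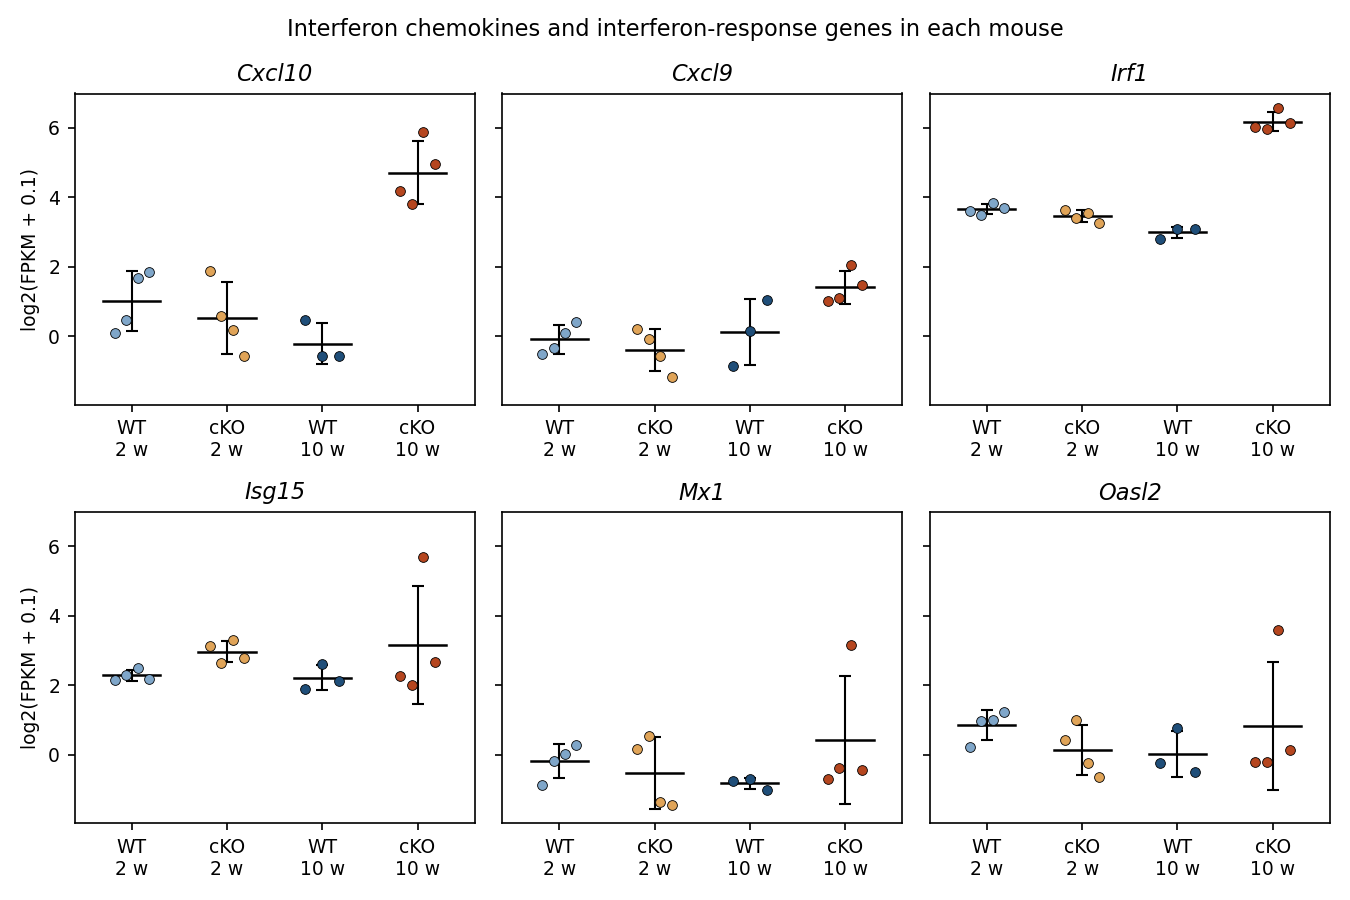
Levels of *Cxcl10*, *Cxcl9* and 4 interferon-response genes as log2(FPKM + 0.1) (y axis) in each mouse (points, in the order of replicate number) of the 4 groups, with mean and SD. In *Socs3* cKO at 10 weeks *Cxcl10* and *Irf1* are high in all 4 mice, whereas *Isg15*, *Mx1* and *Oasl2* are high in replicate 3 only.

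*Cxcl16* stood at 11.8, 7.83 and 7.29 FPKM in the WT and at 21.6, 24.1, 22.5 and 22.5 in *Socs3* cKO at 10 weeks, with little spread in the latter. The log2 difference was 1.36 (SE 0.20, adjusted p = 0.00122). *Cxcl12* stood at 59.7, 49.6 and 44.1 FPKM in the WT and at 69.2, 66.3, 97.0 and 135 in *Socs3* cKO, and its log2 difference of 0.79 (SE 0.26) was not called (adjusted p = 0.0355). *Cxcl14* stood at 19.1, 28.9 and 20.9 FPKM in the WT and at 45.4, 45.5, 23.9 and 31.5 in *Socs3* cKO, where the groups overlapped (log2 difference 0.64, SE 0.26, adjusted p = 0.0742).

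Neither of the genes that were down-regulated at 2 weeks was down-regulated at 10 weeks. *Cxcl13* stood at 0.0633, 0.369 and 0.192 FPKM in the WT and at 0.570, 1.11, 0.189 and 0.646 in *Socs3* cKO, with overlap (exact permutation test p = 0.171). The summed FPKM of the 6 endothelial markers was 15.8 to 21.6 in the WT and 35.3 to 47.1 in *Socs3* cKO at 10 weeks, with 3 of 6 up-regulated, and 1 of the 5 fibroblast markers, *Pdgfra*, was up-regulated. Their part in the values of *Cxcl12* was not tested.

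**Figure D4:**
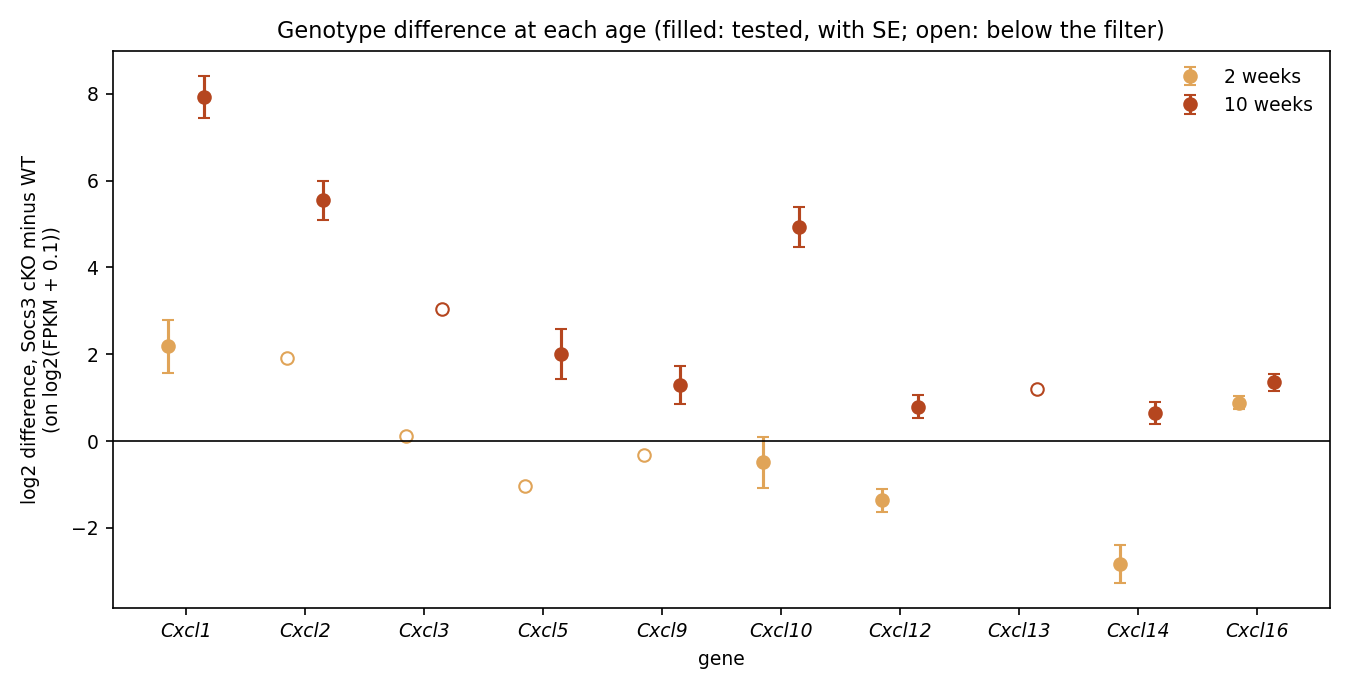
Difference between *Socs3* cKO and WT on the log2(FPKM + 0.1) scale (y axis) for each gene (x axis) at 2 weeks (light) and 10 weeks (dark), with the SE as whiskers for tested genes and open circles for genes below the filter. *Cxcl13* at 2 weeks is left out because the WT was listed at 0. The homeostatic *Cxcl12* and *Cxcl14* lie at -1.37 and -2.83 at 2 weeks, and *Cxcl1*, *Cxcl2* and *Cxcl10* at 7.93, 5.55 and 4.93 at 10 weeks.

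Whether the genotype difference itself changed with age was tested by the interaction of genotype and age over all 15 mice. A call of the interaction needed only an adjusted p below 0.01, with no fold threshold, unlike the other comparisons. Of the 8 members tested 6 were called, all towards a higher difference at 10 weeks, against 25.6% of all tested genes called (18.5% higher and 7.05% lower). In this fit *Cxcl1* passed the filter only through *Socs3* cKO mice, and *Cxcl2* and *Cxcl5* only with those aged 10 weeks. The count is thus not independent of the filter. The change was 5.75 for *Cxcl1* (adjusted p = 0.000311), 3.62 for *Cxcl2* (0.00203), 3.05 for *Cxcl5* (0.00411) and 5.43 for *Cxcl10* (0.000364) on the log2 scale. For *Cxcl12* it was 2.16 (adjusted p = 0.00126) and for *Cxcl14* 3.47 (0.000497), beside a median of 0.55 for all genes. The call of *Cxcl5* was lost without WT replicate 1 or 3 at 10 weeks (adjusted p = 0.012 and 0.0123). *Cxcl9* (1.61, adjusted p = 0.0392) and *Cxcl16* (0.47, adjusted p = 0.124) were not called. For *Cxcl16* the difference was 0.89 at 2 weeks and 1.36 at 10 weeks. With median-of-ratios scaling, 51.7% of all calls were towards a higher difference in place of 72.4%, and the same number of members was called.

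The change with age was then taken within each genotype. These values share mice with the comparisons above and are no independent evidence. In the WT, *Cxcl12* (log2 difference of 10 against 2 weeks -1.22, SE 0.30, adjusted p = 0.00412) and *Cxcl14* (-3.05, SE 0.41, adjusted p = 5.9e-05) fell with age, against 25.5% of all tested genes called (6.18% higher and 19.4% lower) and a median of -0.44. No other member was called in the WT. The older WT mice lay wholly below the young ones for *Cxcl5*, *Cxcl12* and *Cxcl14* (49.5% of all tested genes) and wholly above for *Cxcl13* (17.3%). *Cxcl13* was below the filter, at most 0.369 FPKM in these mice, and the older WT libraries listed fewer genes at 0. The call of *Cxcl12* was lost without WT replicate 2 or 3 of either age (adjusted p = 0.0109 to 0.0232). With median-of-ratios scaling *Cxcl12* was at -0.83 and no longer called, and 47.6% of all calls were higher in place of 24.2%. The 7 hair shaft keratins (0.503 to 1.24 FPKM in sum in the WT at 10 weeks) and all 6 endothelial markers also fell with age in the WT, and their part was not tested.

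In *Socs3* cKO, *Cxcl1* (5.75, adjusted p = 2.6e-05), *Cxcl2* (4.66, 4.3e-05), *Cxcl5* (2.59, 0.00354) and *Cxcl10* (4.18, 0.000317) rose from 2 to 10 weeks, against 3.54% of all tested genes called (2.01% higher and 1.53% lower). Here too *Cxcl2* and *Cxcl5* passed the filter only with the older *Socs3* cKO mice. *Cxcl12* (0.95, adjusted p = 0.0417), *Cxcl14* (0.41, adjusted p = 0.472) and *Cxcl16* (0.40, adjusted p = 0.141) were not called there. The call of *Cxcl5* was lost without replicate 4 of *Socs3* cKO at 2 weeks (adjusted p = 0.0129) or at 10 weeks (0.0113). *Cxcl9* was at 1.81 (adjusted p = 0.0116), and was called without *Socs3* cKO replicate 1 at 2 weeks (0.00727) or without WT replicate 1 or 3 at 10 weeks (0.00567 and 0.00646). The older mice lay wholly above the young ones for 8 of the 10 members, 7 of them tested (7.71% of all tested genes), and wholly below for 0 (6.79%). Skeletal muscle markers fell over the same interval (4 of 5 called lower, in sum from 1054 to 1595 FPKM to 230.1 to 431), and their part in these values was not tested. Among the members with a called interaction, the called changes with age thus lay in *Socs3* cKO for the neutrophil and interferon chemokines and in the WT for *Cxcl12* and *Cxcl14*.

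The receptors of these ligands were measured in the same libraries. Of 11 listed symbols, older names included, 8 were in the files. At 2 weeks 1 of 5 tested receptors was called (down-regulated) and at 10 weeks 1 of 6 (up-regulated), where 14.4% and 14.9% of all tested genes were called. *Cxcr4*, the signalling receptor of Cxcl12, stood at 18.03, 16.3, 16.0 and 15.1 FPKM in the WT and at 3.38, 5.55, 3.51 and 2.16 in *Socs3* cKO at 2 weeks. It fell in *Socs3* cKO (log2 difference -2.21, SE 0.26, adjusted p = 0.000583) and with age in the WT (-3.34, adjusted p = 2.6e-06), to 2.19, 1.36 and 1.18 FPKM.

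*Cxcr4* in *Socs3* cKO at 10 weeks stood at 1.88, 1.67, 3.15 and 3.18 FPKM, a log2 difference of 0.61 from the WT (adjusted p = 0.165), and its interaction was called (2.81, adjusted p = 0.000329). The WT mice at 2 weeks held the highest *Cxcr4* and, except for 1 older *Socs3* cKO mouse, the highest *Cxcl12*. *Cxcr7*, the scavenger receptor of Cxcl12, moved otherwise. It stood at 11.9, 15.2, 15.3 and 14.2 FPKM in the WT and at 41.0, 21.0, 27.6 and 23.9 in *Socs3* cKO at 2 weeks (log2 difference 0.96, adjusted p = 0.00985, below the fold threshold). At 10 weeks it stood at 15.6, 21.9 and 11.4 FPKM in the WT and at 34.4, 33.5, 34.2 and 47.8 in *Socs3* cKO, and was up-regulated (1.23, SE 0.24, adjusted p = 0.00422).

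*Cxcr2*, the receptor of the neutrophil chemokines, was not among the up-regulated genes. It stood at 4.80, 5.74 and 6.55 FPKM in the WT and at 2.39, 2.63, 5.20 and 1.40 in *Socs3* cKO at 10 weeks (log2 difference -1.08, SE 0.37, adjusted p = 0.045), and without replicate 3 of *Socs3* cKO 1 receptor was called down-regulated. Of 10 neutrophil markers listed, 9 were in the files and 2 were tested at 10 weeks, with 0 called by limma and 0 at an unadjusted p under 0.05. Their summed FPKM was 2.75 to 6.64 in the WT and 2.80 to 5.27 in *Socs3* cKO. In each group 6 of the 9 were under 1 FPKM in every mouse, but not the same 6. *Camp* reached 2.18 FPKM in the WT and 0.707 in *Socs3* cKO, whereas *Mpo* reached 0.440 in the WT and 2.12 in *Socs3* cKO.

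*Cxcr3*, the receptor of Cxcl9 and Cxcl10, stayed between 0.542 and 1.34 FPKM in all mice (log2 difference at 10 weeks 0.12, adjusted p = 0.793). *Cxcr6*, the receptor of Cxcl16, stood at 2.30, 2.89 and 1.56 FPKM in the WT and at 3.23, 4.07, 4.14 and 4.40 in *Socs3* cKO at 10 weeks (0.82, adjusted p = 0.0304). *Darc*, the decoy receptor of venules, differed by -0.10 at 2 weeks and -0.19 at 10 weeks (adjusted p = 0.684 and 0.635). *Cxcr1* and *Cxcr5* were below the filter.

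**Figure D5:**
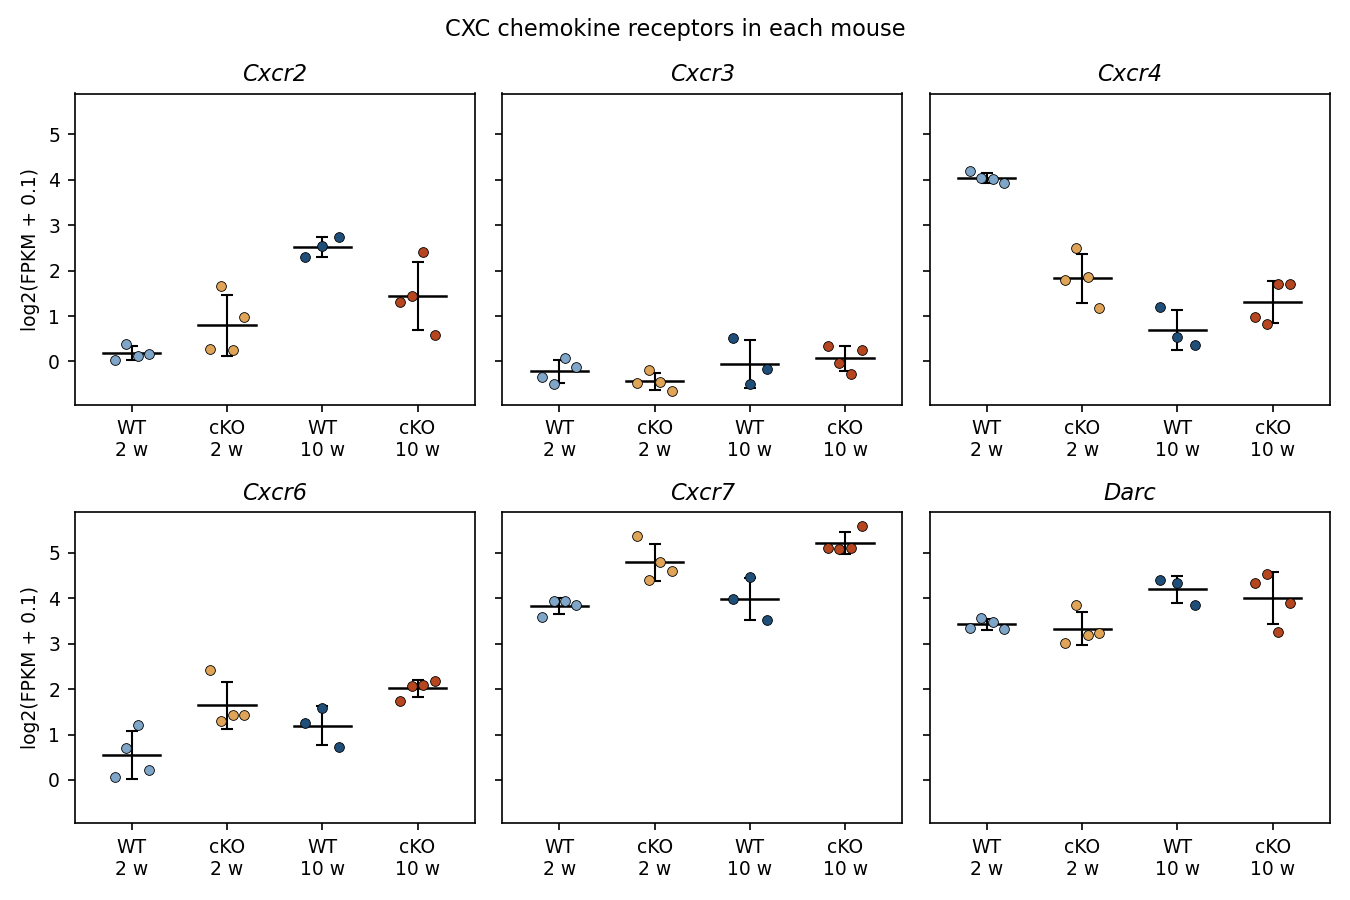
Levels of 6 CXC chemokine receptors as log2(FPKM + 0.1) (y axis) in each mouse (points) of the 4 groups, with mean and SD. *Cxcr4* is highest in the WT at 2 weeks (15.1 to 18.03 FPKM), *Cxcr7* is higher in *Socs3* cKO at 10 weeks, and *Cxcr2* is highest in the WT at 10 weeks (4.80 to 6.55 FPKM).

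Of 13 cytokines in the files that act upstream of the neutrophil chemokines, 8 were below the filter at 2 weeks, *Il1b* and *Il17a* among them. At 2 weeks 4 of the 5 tested were up-regulated, beside 7.24% of all tested genes: *Il1f8* (log2 difference 3.41), *Il1f6* (3.30), *Il1f9* (2.46) and *Il1a* (2.11), all of the interleukin-1 family and made by keratinocytes. At 10 weeks 6 of the 9 tested were up-regulated, beside 12.5% of all tested genes, led by *Il6* (7.84), *Il1b* (4.88), *Il17a* (3.75) and *Il1f8* (2.91). *Il6*, *Il17a* and *Osm* passed the filter only through the *Socs3* cKO mice, with every WT mouse below 1 FPKM. *Il1b* and *Tnf*, at 0.109 to 1.13 and 0.738 to 1.59 FPKM in the WT, also needed *Socs3* cKO mice to pass. The count of calls at 10 weeks is thus not independent of the filter. *Il1f9* was not called at this age (-0.41, adjusted p = 0.35). *Il6* stood at 0.618, 0.0801 and 0.0696 FPKM in the WT and at 43.7, 42.8, 82.2 and 109 in *Socs3* cKO. The high neutrophil chemokines and the high *Il6* and *Il1b* thus lay in the same 4 mice.

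NF-kB feedback genes are induced by NF-kB and then restrain it or form part of it. Of the 12 tested, 1 was up-regulated at 2 weeks (*Rel*), where 7.24% of all tested genes were, and 5 were lower at an unadjusted p under 0.05. At 10 weeks 10 were up-regulated, where 12.5% of all tested genes were. The medians were -0.75 and 2.24, beside -0.21 and 0.31 for all genes. The highest differences at 10 weeks were those of *Tnfaip3* (5.33), *Rel* (4.01), *Nfkbiz* (3.67) and *Nfkbia* (3.07). *Rel*, at 0.321 to 0.557 FPKM in the WT at 2 weeks and 0.439 to 0.892 at 10 weeks, passed the filter only through the *Socs3* cKO mice. *Tnfaip3*, a deubiquitinating inhibitor of the pathway, stood at 1.63, 3.39 and 1.43 FPKM in the WT and at 80.0, 85.98, 116 and 63.1 in *Socs3* cKO.

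Immediate-early genes, which handling of tissue can also raise within minutes, moved with them. Of the 16 tested limma called 0 at 2 weeks (2 were lower at an unadjusted p under 0.05). The *Socs3* cKO mice of that age spread widely to both sides of the WT, with a summed FPKM of 199 to 1056 against 493 to 524. At 10 weeks 15 were up-regulated (12.5% of all tested genes), among them *Nr4a1* (6.33), *Fosb* (5.85), *Fos* (5.22) and *Atf3* (4.65). Of the 8 macrophage markers, 5 were up-regulated at 10 weeks, against the same share of all genes, led by *Cd14* (2.32), and limma called 0 at 2 weeks (3 were higher at an unadjusted p under 0.05). Their summed FPKM at 10 weeks was 300.2 to 568 in the WT and 462 to 702 in *Socs3* cKO. Their part in the chemokine values was not tested.

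Enzymes and proteoglycans that cut or hold chemokines were called in 3 of 7 tested cases at 10 weeks, where 14.9% of all tested genes were called: *Dpp4* (1.70), a peptidase that trims Cxcl10 and Cxcl12, the protease *Mmp2*, and *Sdc1* (1.02) were up-regulated. *Adam17*, a sheddase, differed by 0.89 (adjusted p = 0.00857) and *Adam10*, which sheds Cxcl16, by 0.23 (adjusted p = 0.402). At 2 weeks limma called 0 of 7 (1 was lower at an unadjusted p under 0.05). Among 5 other CXC ligands, *Pf4*, the platelet factor also made by macrophages, was abundant at 47.6 to 58.9 FPKM in the WT at 2 weeks, rose with age in the WT (log2 difference 1.92, adjusted p = 0.000638) and was not called between the genotypes (0.92 at 2 weeks, adjusted p = 0.0357, and 0.12 at 10 weeks, adjusted p = 0.794). *Ppbp*, a platelet ligand of Cxcr2, stood at 0.693, 0.727 and 0.140 FPKM in the WT and at 1.18, 1.02, 1.24 and 2.51 in *Socs3* cKO at 10 weeks, with no overlap (1.47, SE 0.49, adjusted p = 0.0398). *Cxcl11*, *Cxcl15* and *Cxcl17* stayed below the filter.

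The genes whose levels followed each member most closely were named by Pearson's r over the 15 mice, as a description, since the 4 groups and their libraries shape every such value. For *Cxcl1* these were *Ptgs2* (r 0.976), *Gem* (0.974) and *Plscr1* (0.972), for *Cxcl2* *Ccrl2* (0.967), *Plscr1* (0.963) and *Cxcl1* (0.957), and for *Cxcl10* *Tnfaip6* (0.956), *Irf1* (0.952) and *Ccnl1* (0.940). *Cxcl14* was closest to *Lrrn2* (0.990), *Fads3* (0.989) and *Sox13* (0.981), and *Cxcl12* to *Jdp2* (0.938), *Coro1b* (0.933) and *Rftn1* (0.921).

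Once group means were removed, *Cxcl1* and *Ptgs2* kept an r of 0.898 and *Cxcl14* and *Fads3* one of 0.955, whereas *Cxcl1* and *Cxcl2*, close over all mice, kept 0.415. *Cxcl5* was closest over all mice to *Mpeg1* (0.913), *Ifi203* (0.909) and *Rrad* (0.897). *Cxcl16* was closest to *Eif1a* (0.956), *Gyk* (0.946) and *Skint1* (0.946), and *Cxcl9* to *Ttc12* (0.855), *Cd37* (0.843) and *Fgf23* (0.826). *Cxcl3* and *Cxcl13* were below the filter and were not compared.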

How the data were processed

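Total RNA of ears was sequenced as single reads of 50 bases. Per the labels, the authors aligned the reads to mm9 with TopHat2 2.1.0, and deposited FPKM values made with Cufflinks for 21110 genes. Counts per gene were not analysed here, and the edgeR test of the authors was therefore not repeated. Each age was compared with limma 3.58.1 (R 4.3.3, trend in the prior variance, Benjamini-Hochberg adjustment over all tested genes, 2-sided). The interaction and the change with age were fitted on all 15 mice. Members below the filter got an exact permutation test over mice. Python 3.11.15, numpy 2.4.6, pandas 2.3.3 and matplotlib 3.10.9 made the summaries.

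Depth was estimated from the FPKM worth of 1 read in genes with 1 transcript. The members and gene lists were chosen with earlier results of these data known. All members are named, all receptors, up to 4 called genes of each other list by size of difference, and the 3 genes closest to each member that passed the filter. *Isg15*, *Mx1*, *Oasl2*, *Ifng*, *Adam10* and *Adam17* were named after their values were seen. Same-numbered replicates did not deviate together between the genotypes (mean correlation -0.00171 at 2 weeks and -0.117 at 10 weeks). Between the ages the mean was 0.0596 in the WT, against -0.0201 for other numbers, with 3 of 3 best with their own number. In *Socs3* cKO it was 0.0186, against -0.00407, with 1 of 4 best with its own number. Numbers were not treated as pairs. The labels do not say that mice came from separate litters, so p-values measure the spread between these mice. The alternatives were other pseudocounts, filters, scalings, variance models and fits, a replicate block, removal of length and GC trends, and leaving out each mouse. The limma step was tested on simulated data.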

Additional observations from a re-analysis of the deposited data

Results flagged for a closer look

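The difference between *Socs3* cKO and WT differed between 2 and 10 weeks for 6 members, by the interaction term of limma: by 5.75 for *Cxcl1*, 3.62 for *Cxcl2*, 3.05 for *Cxcl5*, 5.43 for *Cxcl10*, 2.16 for *Cxcl12* and 3.47 for *Cxcl14* on the log2 scale. For *Cxcl5*, *Cxcl10*, *Cxcl12* and *Cxcl14* the difference was below 0 at 2 weeks and above 0 at 10 weeks.

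In 3 of 29 groups of 4 mice examined, 1 mouse lay far from the others by Dixon's criterion, where chance alone gives about 1 in 20. *Cxcl14* stood at 9.34 FPKM in *Socs3* cKO replicate 1 at 2 weeks, against 33.8 to 42.8 in the other mice of the group. That library also had the lowest correlation with its group. *Cxcl16* stood at 13.8 FPKM in *Socs3* cKO replicate 2 at 2 weeks, against 18.1 to 18.7. *Cxcl2* stood at 0.0334 FPKM in WT replicate 3 at 2 weeks, against 0.0784 to 0.0888. These *Cxcl2* values rest on very few reads (1 read of *Cxcl1* was worth 0.0689 FPKM in that library), so the step between them may be one of read counts.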

How the results depend on the processing

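At 10 weeks 4 or 5 members were called under each alternative run, and 5 to 7 by the interaction. At 2 weeks the count of 2 became 4 with all 4 groups in one fit and with quantile normalization, 1 with the replicate block and 1 to 2 when 1 mouse was left out. The block changed no other call among the members. In that fit *Cxcl12* lost its call (adjusted p = 0.0147), and 5.55% of all genes were called in place of 14.4%. In the WT with age the count of 2 became 1 with median-of-ratios scaling and was 1 to 2 with 1 mouse left out. In *Socs3* cKO with age it was 3 to 5. *Cxcl1* at 2 weeks could not be tested without *Socs3* cKO replicate 1, 2 or 3.

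The following signs turned, all for values that were not called. At 2 weeks *Cxcl10* was at 0.00326 and *Cxcl9* at 0.201 with quantile normalization, and *Cxcl3* ranged from -0.0676 to 0.257 with 1 mouse left out. The interaction of *Cxcl13* ranged from -1.27 to 0.855 over the settings and from -0.157 to 0.624 with 1 mouse left out. In the WT with age, *Cxcl1* was at 0.0491 with a pseudocount of 1 and at 0.308 with median-of-ratios scaling, *Cxcl16* at 0.319 with that scaling and 0.501 with quantile normalization, and *Cxcl5* at 0.00407 with the latter. The interaction of *Cxcl16* was at -0.157 with quantile normalization. With 1 mouse left out, the change with age in the WT ranged from -0.39 to 0.62 for *Cxcl1*, -0.28 to 0.0628 for *Cxcl16* and -0.26 to 0.69 for *Cxcl9*, and that of *Cxcl14* in *Socs3* cKO from -0.0841 to 0.64. The cause was not tested.

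Other calls changed as follows. *Cxcl1* at 2 weeks was called in one fit of 4 groups (adjusted p = 0.00735) and with quantile normalization (0.00865), and *Cxcl5* at 10 weeks in the former (0.00859). *Cxcl9* with age in *Socs3* cKO was called with a pseudocount of 1 (0.00554) and with length and GC trends removed (0.00525). The interaction of *Cxcl2* was lost with a pseudocount of 0.01 (adjusted p = 0.0147), and that of *Cxcl5* with quantile normalization (0.011). *Cxcl10* fell with age in the WT once length and GC trends were removed (-2.32, adjusted p = 0.00264). Leaving out 1 mouse moved the share of all genes called between 6.40 and 24.9% at 2 weeks, 5.76 and 20.7% at 10 weeks, 15.9 and 32.5% in the WT with age, 2.16 and 5.03% in *Socs3* cKO with age, and 14.4 and 36.8% for the interaction. Values of *Cxcl2*, *Cxcl3* and *Cxcl13* outside *Socs3* cKO at 10 weeks rest on few reads, and small differences there were not detectable at this depth.

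In an alternative chosen after seeing the data, *Socs3* cKO replicate 3 at 10 weeks was left out of the list counts. The up-regulated genes at 10 weeks then numbered 9 in place of 10 for NF-kB feedback, 14 in place of 15 for immediate-early genes, 5 in place of 6 for cytokines and 1 in place of 2 for the interferon response.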

Other observations

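Cxcl9 and Cxcl10 attract T cells, and Cxcl13 attracts B cells. Of 5 T cell markers tested at 2 weeks, *Cd3d* (log2 difference 1.23) and *Cd3g* (1.08) were up-regulated and *Cd4* (-1.28) down-regulated, where 14.4% of all tested genes were called, with a summed FPKM of the 7 listed of 18.8 to 26.3 in WT mice and 29.9 to 49.7 in the *Socs3* cKO mice. Of 5 T cell markers tested at 10 weeks 1 was up-regulated, where 14.9% of all tested genes were called, with a sum of 34.9 to 37.7 in WT mice and 36.0 to 54.6 in the *Socs3* cKO mice. At the same age the 5 B cell markers summed to 2.16 to 4.15 FPKM in WT mice and to 0.891 to 2.46 in the *Socs3* cKO mice. Only 1 of the 5 was tested, with 0 called. *Pax5* was listed at 0 in all *Socs3* cKO mice, and also in 3 of the 4 WT mice at 2 weeks. *Cxcr5*, the receptor of Cxcl13 on B cells, stood at 1.16, 0.587 and 1.04 FPKM in the WT and at 0.126, 0.371, 0.175 and 0.140 in *Socs3* cKO at 10 weeks, with no overlap and below the filter. The WT libraries at 10 weeks listed fewer genes at 0 than all others, so these low values are hard to compare between the groups.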
